A study of Mus musculus with 2 samples.

Results

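The RNA component of RNase MRP (Rmrp), the RNA component of RNase P (Rpph1), 7SK RNA (Rn7sk), the Y RNAs Rny1 and Rny3, the vault RNA Vaultrc5 and the misc_RNA entries Gm22405 and Gm25043 were described in RNA isolated with telomeric chromatin. The 8 RNAs were found by gene symbol, each with 1 transcript, among 48876 transcripts listed for both libraries. They had been chosen with their read counts and their ratios between the libraries already known, so those values are given here as a description and no test was run on them. In enChIP, the method of isolation, a tagged protein that binds chosen DNA is expressed in cells, crosslinked chromatin is sonicated, the tag is precipitated with an antibody to FLAG, and RNA in the precipitate is sequenced. Both libraries came from Ba/F3 cells, a mouse hematopoietic line of the C3H strain, fixed with formaldehyde. The cells of the 3xFN-Tel-TAL library stably expressed a TAL protein that recognizes the TTAGGG repeats of telomeres, fused to a 3xFLAG tag and a nuclear localization signal. The cells of the 3xFNLDD library stably expressed a tagged LexA protein, a bacterial DNA-binding protein used as negative control. Each condition is 1 library, with 7206183 reads for 3xFNLDD and 9774844 for 3xFN-Tel-TAL, so no difference has a replicate check. The labels give 60 ng of RNA for each library. The study's methods state larger amounts of purified RNA for sequencing, which were unequal and larger for 3xFNLDD.

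RNA polymerase III makes short, untranslated transcripts and ends them at a run of T in the coding strand. Rmrp and Rpph1 are the RNA subunits of related endonucleases: RNase MRP cleaves precursor ribosomal RNA in the nucleolus, RNase P removes the leader of precursor tRNA, and the enzymes share most of their proteins. 7SK RNA holds the elongation kinase P-TEFb inactive together with Hexim proteins. Y RNAs are bound by the Ro and La proteins, and vault RNAs belong to the vault, a large cytoplasmic particle. Rmrp, Rpph1, Rn7sk and the Y RNAs have promoters upstream of the transcript, whereas vault RNA genes carry promoter boxes inside it. The entry Gm22405 is a synonym of Rn7s1 in RefSeq, where it is classed as a small cytoplasmic RNA, and Rn7s1 is a gene of 7SL RNA, the scaffold of the signal recognition particle that brings nascent secretory proteins to the endoplasmic reticulum. RefSeq held 7 of the 8 RNAs. The exception was Gm25043, which the GENCODE M1 annotation names RNaseP_nuc, a nuclear RNase P RNA.

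Sequences and positions were read from the NCBIM37 mouse assembly with GENCODE M1 by transcript identifier, an older assembly than the GRCm38 (mm10) named in the submitters' processing notes, and the deposited files themselves hold no coordinates. All members are annotated there as misc_RNA genes of 1 exon, of 102 to 331 nt. Rmrp (ENSMUST00000157463) lies at chr4:43505660-43505930 on the minus strand. It is shown whole, 5′ to 3′, with capitals for the 124 bases (36 to 159) that an exon of the Ccdc107 transcript ENSMUST00000143073 overlaps on the opposite strand, since without strand information reads from the pair cannot be told apart there.
Rmrp: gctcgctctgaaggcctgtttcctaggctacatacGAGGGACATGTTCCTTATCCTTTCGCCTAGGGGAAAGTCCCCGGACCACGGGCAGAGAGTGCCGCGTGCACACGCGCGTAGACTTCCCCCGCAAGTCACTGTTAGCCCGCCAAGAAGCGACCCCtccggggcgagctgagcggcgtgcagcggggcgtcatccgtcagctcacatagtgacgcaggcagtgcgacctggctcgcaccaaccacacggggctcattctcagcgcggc

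Rpph1 (ENSMUST00000175096) lies at chr14:51427124-51427442 on the minus strand, 178 bases from the start of Parp2, which runs the other way. Its first 102 bases are shown because they hold the letters CCCTAA, given in capitals, at positions 89 to 94 from the 5′ end. CCCTAA is the C-rich unit of the telomeric repeat. No other member held CCCTAA or TTAGGG on its own strand, and CCCTAA was present in 53 of the 1911 listed transcripts of 100 to 350 nt (2.77%) and TTAGGG in 36 (1.88%). The same 102 bases were found in the GRCm38.p6 sequence upstream of Parp2, so this stretch is the same in both assemblies.
Rpph1: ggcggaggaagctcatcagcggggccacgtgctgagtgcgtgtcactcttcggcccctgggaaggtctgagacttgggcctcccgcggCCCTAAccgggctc

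Gm25043 (ENSMUST00000158604, chr13:33659663-33659874, plus strand, 212 nt) matched Rpph1 over only 91 aligned positions (84.6% identity), which correspond to bases 114 to 204 of Rpph1. The stretch is shown for Rpph1, for Gm25043 (bases 106 to 194) and for Rprl3 (bases 114 to 204), another RNase P RNA-like gene. Capitals mark bases that differ from Rpph1 or have no partner there. There are 12 of them in Gm25043, which also lacks 2 bases of Rpph1, and 5 in Rprl3.
Rpph1: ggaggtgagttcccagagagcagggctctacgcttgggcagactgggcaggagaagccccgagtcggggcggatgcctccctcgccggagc
Gm25043: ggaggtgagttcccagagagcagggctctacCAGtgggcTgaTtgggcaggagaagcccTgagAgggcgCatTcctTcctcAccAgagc
Rprl3: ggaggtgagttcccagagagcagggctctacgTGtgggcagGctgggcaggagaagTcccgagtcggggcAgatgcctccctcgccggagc

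Rn7sk (ENSMUST00000083103) lies at chr9:78023110-78023440 on the minus strand. The genome holds many shortened copies of 7SK, and 1 of the deeper ones, Gm24447 (ENSMUST00000083977, chr15:93064794-93065131, plus strand), was identical to Rn7sk over bases 1 to 241, where the match ended. The 3′ parts from base 212 are shown with capitals beyond the shared part. A read that lies wholly before the capitals fits both genes equally well.
Rn7sk: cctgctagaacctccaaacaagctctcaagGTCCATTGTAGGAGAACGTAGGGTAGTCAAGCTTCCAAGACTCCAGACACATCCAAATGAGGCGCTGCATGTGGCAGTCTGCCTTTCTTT
Gm24447: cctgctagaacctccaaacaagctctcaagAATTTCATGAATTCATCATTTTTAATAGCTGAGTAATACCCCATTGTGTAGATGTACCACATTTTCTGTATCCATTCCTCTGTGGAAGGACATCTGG

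Gm22405 (ENSMUST00000174924) lies at chr12:70260282-70260578 on the plus strand, 108 bases from the start of Rps29 on the other strand.

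The Y RNA genes are neighbours on chromosome 6 with 6343 bases between them, Rny3 at chr6:47731623-47731724 on the plus strand and Rny1 at chr6:47738068-47738179 on the minus strand. Both are shown with their terminal T run in capitals, the end that the La protein binds.
Rny1: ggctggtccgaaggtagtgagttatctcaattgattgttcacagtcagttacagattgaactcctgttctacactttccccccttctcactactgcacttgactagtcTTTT
Rny3: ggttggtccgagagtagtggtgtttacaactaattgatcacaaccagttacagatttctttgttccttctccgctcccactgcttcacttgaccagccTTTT
The window from the last 10 bases of the transcript to the 20 bases of genome that follow held TTTT for 7 of the 8 members, the exception being Gm25043. The same window held TTTT for 22.6% of 45862 annotated transcripts of any length. The RNase P RNA-like genes Rprl2 and Rprl3 also lacked TTTT in that window, whereas Rprl1 held it. G and C made up 43.8% of Rny1 and 67.1% of Rpph1, the lowest and highest values among the members.

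In both libraries nearly all reads of the 8 RNAs came from Rn7sk, Gm22405, Rmrp and Rpph1, which held 99.92% of the members' reads with 3xFNLDD and 99.85% with 3xFN-Tel-TAL. Together the 8 RNAs took 71150 reads (0.987%) of the 3xFNLDD library and 166544 reads (1.70%) of the 3xFN-Tel-TAL library. Levels are given as RPM, an RNA's reads relative to all reads of its library, with exact Poisson limits. The level in 3xFN-Tel-TAL over that in 3xFNLDD is given as a log2 ratio with an exact Clopper-Pearson 95% interval. These limits and intervals hold counting error alone, since amplified reads carry no identifier of the molecule they came from, and they compare 2 libraries rather than 2 conditions.

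**Figure D1:**
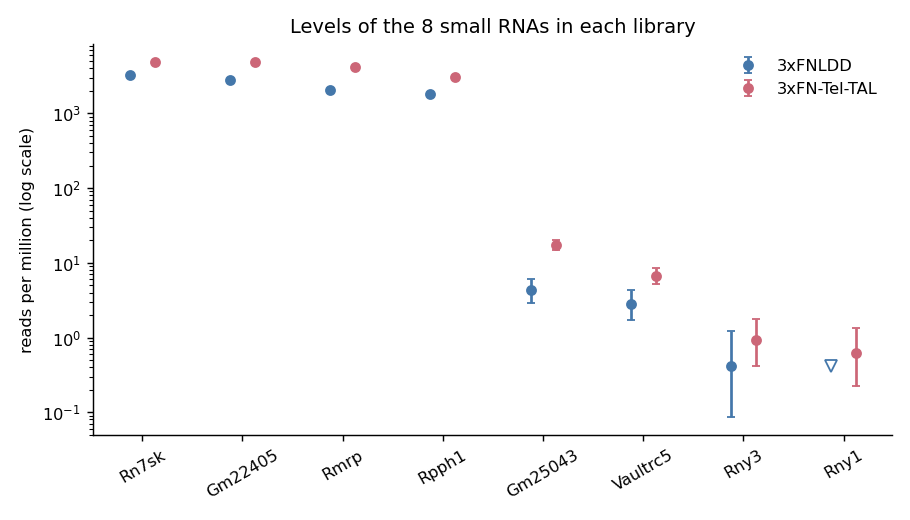
RPM on a log scale for the 8 RNAs in the 3xFNLDD (blue) and 3xFN-Tel-TAL (red) libraries, with exact Poisson 95% limits. The open triangle marks the level of 3 reads (0.416 RPM) for Rny1, which had no read with 3xFNLDD. Rn7sk, Gm22405, Rmrp and Rpph1 lie between 1834 and 4861 RPM, and the other 4 RNAs at or below 17.2 RPM.

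Of the RNA subunits of the endonucleases, Rmrp had the larger ratio. It had 14692 reads (2039 RPM) with 3xFNLDD and 41257 reads (4221 RPM) with 3xFN-Tel-TAL, a log2 ratio of 1.05 (1.02 to 1.08), or 2.07-fold. Rpph1 had 13219 reads (1834 RPM) and 30279 reads (3098 RPM), a log2 ratio of 0.76 (0.73 to 0.79), or 1.69-fold. Both were higher with 3xFN-Tel-TAL, and their intervals do not overlap. As levels per length, Rmrp was at 7523 and 15575 RPM per kb and Rpph1 at 5750 and 9710 RPM per kb. The comparison of these RNAs within a library needs no library total: Rmrp made up 52.6% (52.1 to 53.2) of the reads of the pair with 3xFNLDD and 57.7% (57.3 to 58.0) with 3xFN-Tel-TAL, so its reads were 1.11 and 1.36 times those of Rpph1.

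Gm25043, annotated as a nuclear RNase P RNA, had the highest log2 ratio of the members with at least 20 reads. It had 31 reads (4.30 RPM) with 3xFNLDD and 168 reads (17.2 RPM) with 3xFN-Tel-TAL, a log2 ratio of 2.0 (1.44 to 2.60). Its level per length, 20.3 and 81.1 RPM per kb, was far under that of Rpph1 in both libraries. The reads do not say whether Gm25043 was the source of the sequences assigned to it, because how reads that match several transcripts were counted is not given in the sources used here.

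Of the other RNase P RNA-like genes, Rprl3 had the most reads. It (86.0% identical to Rpph1 over 257 bases) had 7933 reads with 3xFNLDD and 17347 with 3xFN-Tel-TAL, a log2 ratio of 0.69 (0.65 to 0.73). Rprl2 (85.6% identical) had 197 and 334 reads, a log2 ratio of 0.32 (0.06 to 0.58). Rprl1 (83.7% identical) had 159 and 317 reads, a log2 ratio of 0.56 (0.28 to 0.84). Their log2 ratios were below that of Rpph1, with intervals that overlap its own for Rprl3 and Rprl1, while Gm25043, which resembles them over a shorter stretch, was above it. All 3 Rprl genes also held CCCTAA at positions 89 to 94. With the reads of Rprl1, Rprl2, Rprl3 and Gm25043 added to those of Rpph1, the share of Rmrp in the pair was 40.6% with 3xFNLDD and 46.0% with 3xFN-Tel-TAL. Most of the added reads were those of Rprl3, whose log2 ratio was below that of Rmrp. The direction of this shift was therefore given by the ratios above and is no separate check.

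Rn7sk, the member with the most reads, had the lowest log2 ratio of the 4 deep RNAs. It had 23145 reads (3212 RPM) with 3xFNLDD and 47517 reads (4861 RPM) with 3xFN-Tel-TAL, a log2 ratio of 0.60 (0.58 to 0.62), or 1.51-fold. Copies of 7SK at 90% identity over at least 50% of its length numbered 11 and held 511 and 946 reads, or 2.21% and 1.99% of the reads of Rn7sk, so counting them with it would move its level little. The 5 of these copies with the most reads ranged in log2 ratio from 0.36 (−0.06 to 0.79) for Gm24447, with 74 and 129 reads, to 0.77 (0.27 to 1.28) for Gm23973, with 49 and 113 reads. Between them were Gm26315 (54 and 96 reads, 0.39), Gm26035 (158 and 288 reads, 0.43) and Gm22058 (37 and 82 reads, 0.71). The intervals of Gm24447, Gm26315, Gm23973 and Gm22058 include the log2 ratio of Rn7sk, and so does that of Gm26035 (0.14 to 0.72).

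Gm22405, the 7SL RNA entry, had 20040 reads (2781 RPM) with 3xFNLDD and 47243 reads (4833 RPM) with 3xFN-Tel-TAL, a log2 ratio of 0.80 (0.77 to 0.82), or 1.74-fold. Its ratio lay next to that of Rpph1, and the intervals of these RNAs overlap from 0.77 to 0.79. In all, 662 other listed transcripts matched part or all of Gm22405 on either strand, 316 of them protein-coding. Its 6 near-identical copies held 82 and 116 reads, under 0.5% of its own. Among them Gm24514 had 6 and 29 reads and a log2 ratio of 1.83 (0.54 to 3.39), Gm26461 had 10 and 24 reads and 0.82 (−0.29 to 2.05), and Gm22179 had 27 and 26 reads and −0.49 (−1.33 to 0.34). Gm24105 (16 and 21 reads) had a log2 ratio of −0.05 (−1.06 to 0.99) and Gm23153 (11 and 13 reads) one of −0.20 (−1.47 to 1.10). Gm24514 and Gm26461 were above Gm22405 and the other 3 below it, and the upper bound of Gm22179 is the only one of the 5 under 0.77.

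The Y RNAs were at the limit of detection. Rny3 had 3 reads (0.416 RPM) with 3xFNLDD and 9 reads (0.921 RPM) with 3xFN-Tel-TAL, a log2 ratio of 1.15 with an interval from −0.86 to 3.67 that includes no difference. Rny1 had 0 reads with 3xFNLDD, which allows up to 0.416 RPM by the limit of 3 reads, and 6 reads (0.614 RPM) with 3xFN-Tel-TAL. Against that limit Rny1 was at least 1.47-fold higher, whereas the lower bound of the exact interval was 0.868-fold, so no difference was detectable at this depth. The 4 other entries annotated as Y RNA had 2 and 10 reads in all. Rny3 and Rny1 are also the shortest members, at 102 and 112 nt.

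**Figure D2:**
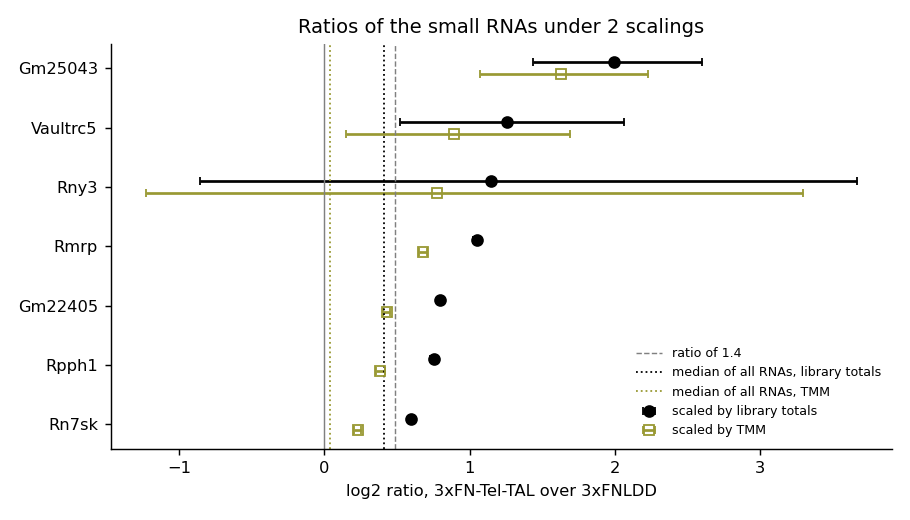
Log2 ratio of 3xFN-Tel-TAL over 3xFNLDD with 95% intervals for the 7 RNAs with reads in both libraries, scaled by library totals (filled circles) or by TMM (open squares). The dashed line is a ratio of 1.4 and the dotted lines are the medians of all RNAs with at least 100 reads, 0.41 by totals and 0.04 by TMM. By TMM Gm22405, Rpph1 and Rn7sk lie under the dashed line.

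The vault RNA Vaultrc5 (ENSMUST00000083211, 143 nt) lies at chr18:36961520-36961662 on the plus strand. It had 20 reads (2.78 RPM) with 3xFNLDD and 65 reads (6.65 RPM) with 3xFN-Tel-TAL, a log2 ratio of 1.26 (0.52 to 2.06). Per length its level was 19.4 and 46.5 RPM per kb. With 3xFNLDD it was nearly level with Gm25043 (20.3, from 31 reads), and with 3xFN-Tel-TAL it was under it (81.1). RefSeq gives Vaultrc5 a length of 345 nt, so its level per length rests on the annotation used. It was the only member with the letters GGTTCGA, the core of the internal B box promoter element, which it held at 2 positions, and 7 of the 1911 listed transcripts of 100 to 350 nt (0.366%) held them. No listed transcript matched it.

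All 6 members that reached 20 reads over both libraries were above a ratio of 1.4, a threshold the study's methods state for read counts and which was applied here to RPM, and so were the lower bounds of their intervals, whereas none was below 1/1.4. Their median log2 ratio was 0.92. Of the 5655 listed RNAs with at least 100 reads, 43.7% were above 1.4 and 6.65% were below 1/1.4, and their median was 0.41. Because the members were chosen on this contrast, these figures stand side by side and nothing is read from them. The ratios also depended on the scaling. In each library 11 RNAs above 1% of either library held 84.8% (3xFNLDD) and 81.1% (3xFN-Tel-TAL) of the reads. Scaling by TMM, which trims extreme RNAs, lowered each log2 ratio by 0.37, and leaving the 11 RNAs out of the totals lowered it by 0.32. With TMM 3 of the 6 members stayed above 1.4, Rmrp (0.68), Vaultrc5 (0.89) and Gm25043 (1.63), against 19.8% of the 5655 RNAs. Rn7sk (0.23), Rpph1 (0.39) and Gm22405 (0.43) were then below 1.4, with TMM log2 ratios still above the TMM median of 0.04.

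Among the 5655 RNAs in order of log2 ratio, Gm25043 was in place 55, Rmrp 723, Gm22405 1273, Rpph1 1382 and Rn7sk 1952. Thus 12.8% of these RNAs had a higher ratio than Rmrp and 34.5% a higher ratio than Rn7sk. Among the 63 RNAs annotated as misc_RNA with at least 100 reads they took places 1, 2, 5, 9 and 15. None of the 63 was below 1/1.4, 21 were above 1.4 and their median log2 ratio was 0.39. Without the 5 members 16 of 58 were above 1.4, with a median of 0.36. Both are smaller shares than the 43.7% of all 5655 RNAs above 1.4, whose median was 0.41. Of the 5655 RNAs 6.65% were below 1/1.4.

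**Figure D3:**
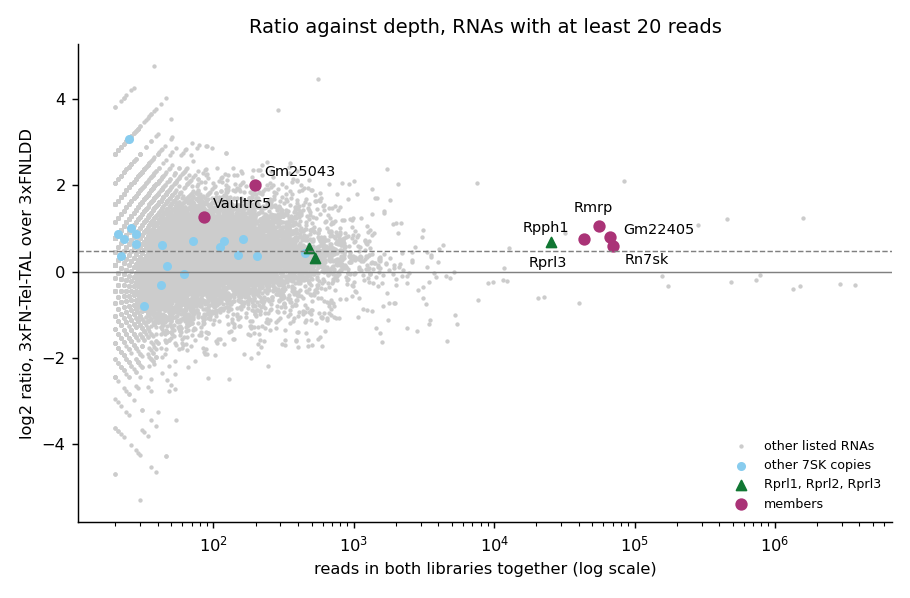
Log2 ratio (library totals) against the reads in both libraries together, on a log scale, for the 16437 RNAs with at least 20 reads and a read in each library. Members are purple, the Rprl genes green triangles, 19 other 7SK copies light blue and the remaining 16409 RNAs grey; the dashed line is a ratio of 1.4. Rn7sk, Gm22405, Rmrp and Rpph1 lie together at 43498 to 70662 reads, between RNAs of like depth on both sides of 0.

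Reads of deep RNAs permit the closest comparison, and 26 RNAs had at least 10000 reads in both libraries together. In order of log2 ratio Rmrp was in place 5, next to the ribosomal DNA-related transcript AY036118 (72829 and 209508 reads, log2 ratio 1.08) and the snRNA entry Gm22068 (9061 and 22997 reads, 0.90). Rn7sk was nearest to Malat1, a nuclear long non-coding RNA (4303 and 8544 reads, 0.55), and then to Rprl3. Gm22405 and Rpph1 were nearest to each other, followed by Gm22068 for Gm22405 and Rprl3 for Rpph1. The likeness is the distance between log2 ratios of a single pair of libraries.

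**Figure D4:**
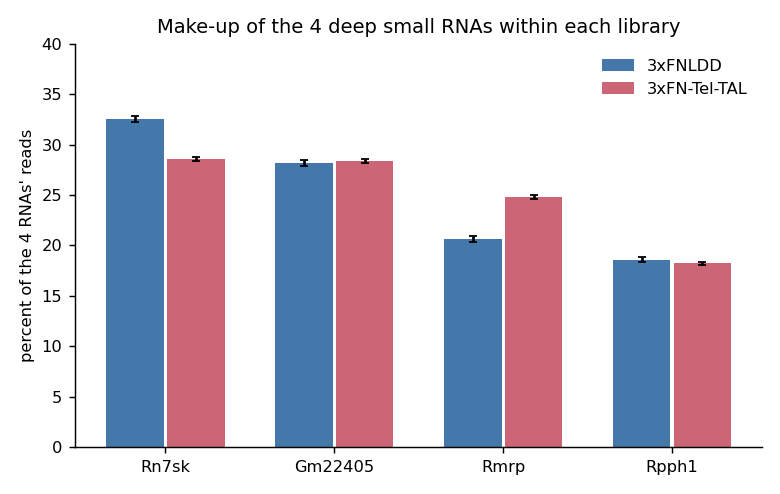
Share of each of the 4 deep RNAs in their summed reads within each library (71096 reads with 3xFNLDD, 166296 with 3xFN-Tel-TAL), with exact binomial 95% intervals. Rn7sk is lower and Rmrp higher with 3xFN-Tel-TAL, whereas Gm22405 and Rpph1 are nearly level.

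Within the 4 deep RNAs, a comparison that no library total enters, Rmrp made up 20.7% of their reads with 3xFNLDD and 24.8% with 3xFN-Tel-TAL. Rn7sk differed the other way, with 32.6% and 28.6%. The shares of Gm22405 (28.2% and 28.4%) and Rpph1 (18.6% and 18.2%) differed by less than 1 percentage point. Rn7sk had 1.58 times the reads of Rmrp with 3xFNLDD and 1.15 times with 3xFN-Tel-TAL. Rn7sk had 53.6% of the reads of Rn7sk and Gm22405 with 3xFNLDD and 50.1% (49.8 to 50.5) with 3xFN-Tel-TAL, where the pair did not differ beyond counting error. As levels per length, the order with 3xFNLDD was Rn7sk (9703 RPM per kb), Gm22405 (9363), Rmrp (7523) and Rpph1 (5750). With 3xFN-Tel-TAL it was Gm22405 (16273 RPM per kb), Rmrp (15575), Rn7sk (14686) and Rpph1 (9710), so Rn7sk stood first in one library and in place 3 in the other.

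The summed 5S ribosomal RNA, U6 and further 7SK entries had few reads and log2 ratios below those of the 4 deep members. The 58 entries of 5S ribosomal RNA, a part of the large ribosomal subunit, had 261 and 459 reads, a log2 ratio of 0.38 (0.15 to 0.60). Of these, n-R5s193 had 113 and 228 reads (0.57) and Gm24089 83 and 124 reads (0.14). The 111 entries of U6, the spliceosomal snRNA that RNA polymerase III makes, had 214 and 362 reads, a log2 ratio of 0.32 (0.07 to 0.57), and Gm22246, the deepest, had 71 and 136 reads (0.50). The 95 further 7SK entries had 718 and 1325 reads, a log2 ratio of 0.44 (0.31 to 0.58), among them Gm24146 with 37 and 75 reads (0.58). All 3 sums were higher with 3xFN-Tel-TAL by totals, but with TMM that of U6 was −0.05 and that of 5S ribosomal RNA 0.01.

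Genes next to the members were counted with few reads. Parp2, a DNA repair polymerase of poly(ADP-ribose) that starts 178 bases from Rpph1, had 21 and 48 reads, a log2 ratio of 0.75 (−0.02 to 1.57). Ccdc107, which starts 303 bases from Rmrp, had 71 and 123 reads over its transcripts, a log2 ratio of 0.35 (−0.08 to 0.80). Of these, 61 and 109 reads were listed for the transcript that overlaps Rmrp on the other strand (0.40, −0.07 to 0.87). Rps29, a ribosomal protein gene that starts 108 bases from Gm22405, had 38 and 32 reads, a log2 ratio of −0.69 (−1.41 to 0.03). The intervals of all 3 neighbours include no difference, and Rps29 and Ccdc107 were below the log2 ratio of the member beside them.

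The mRNAs of proteins that bind or make these RNAs were counted from 7 lists of 67 genes, of which 52 had at least 20 reads. Among the 52, 24 had a ratio above 1.4 and 4 below 1/1.4, and the median log2 ratio was 0.41. Of all 12517 gene symbols with at least 20 reads, 41.1% were above 1.4 and 11.5% below 1/1.4, with a median of 0.37. With TMM the median of the 52 was 0.04. The lists as a whole thus lay at the level of all genes.

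The mRNAs of the proteins of RNase P and RNase MRP were few in reads, with 4 of 11 genes at 20 reads or more. Of the 4, 1 was above 1.4 and none below, and their median was 0.02. Rpp40, a subunit of both enzymes, had 99 and 109 reads, a log2 ratio of −0.30 (−0.71 to 0.11), below those of Rmrp and Rpph1. In the 7SK ribonucleoprotein, 5 of 7 genes were above 1.4 and 1 below, with a median of 0.70. By the interval's lower bound 1 of the 7 was above 1.4, and with TMM 2 were. The share of all gene symbols above 1.4 was 41.1% by totals. Mepce, which caps 7SK RNA, had 59 and 173 reads, a log2 ratio of 1.11 (0.68 to 1.56). Ccnt2, a cyclin of P-TEFb and the gene with the most reads, had 157 and 334 reads, a log2 ratio of 0.65 (0.37 to 0.93). The 1 gene below was Larp7, which binds the 3′ end of 7SK RNA, with 15 and 9 reads and an interval from −2.55 to 0.11, named after its value was seen.

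Of the 6 genes of Y RNA binding proteins with enough reads, 3 were above 1.4 and 1 below, with a median of 0.40. Ncl, the nucleolar protein nucleolin, had 368 and 579 reads, a log2 ratio of 0.21 (0.02 to 0.41). Ptbp1, a splicing regulator, had 214 and 597 reads, a log2 ratio of 1.04 (0.81 to 1.27). Ybx1, a Y-box RNA-binding protein, had 113 and 108 reads, a log2 ratio of −0.51 (−0.90 to −0.11). Members of the list thus differed between the libraries in both directions. The mRNAs of vault proteins also split: Parp4, the poly(ADP-ribose) polymerase of the vault, had 26 and 111 reads (1.65, 1.03 to 2.33), whereas Mvp, the major vault protein, had 21 and 12 reads (−1.25, −2.40 to −0.16) and was named after its value was seen. Tep1, a vault protein that also binds telomerase RNA and was likewise named afterwards, had 28 and 46 reads (0.28, −0.43 to 1.01).

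Of 12 RNA polymerase III subunits with enough reads, 3 were above 1.4, 1 was below and the median was 0.39. Polr3gl, the subunit with the most reads, had 115 and 218 reads, a log2 ratio of 0.48 (0.15 to 0.82), and Polr3c had 41 and 63 reads (0.18, −0.41 to 0.78). Of 14 genes of factors that start or restrain transcription by RNA polymerase III, 6 were above 1.4, none was below and the median was 0.35. Gtf3c4, a subunit of TFIIIC, had 30 and 112 reads, a log2 ratio of 1.46 (0.87 to 2.09). Another subunit of TFIIIC, Gtf3c2, had 179 and 293 reads (0.27, −0.002 to 0.55), and Bdp1, a subunit of TFIIIB, had 120 and 150 reads (−0.12, −0.47 to 0.24). For proteins of the signal recognition particle, 5 of 6 genes were above 1.4, none was below and the median was 0.87. By the interval's lower bound 1 of the 6 was above 1.4, and with TMM 3 were. Among all gene symbols 41.1% were above 1.4 by totals. Srp72 had 73 and 129 reads (0.38, −0.04 to 0.82) and Srp54b had 37 and 71 reads (0.50, −0.09 to 1.12).

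**Figure D5:**
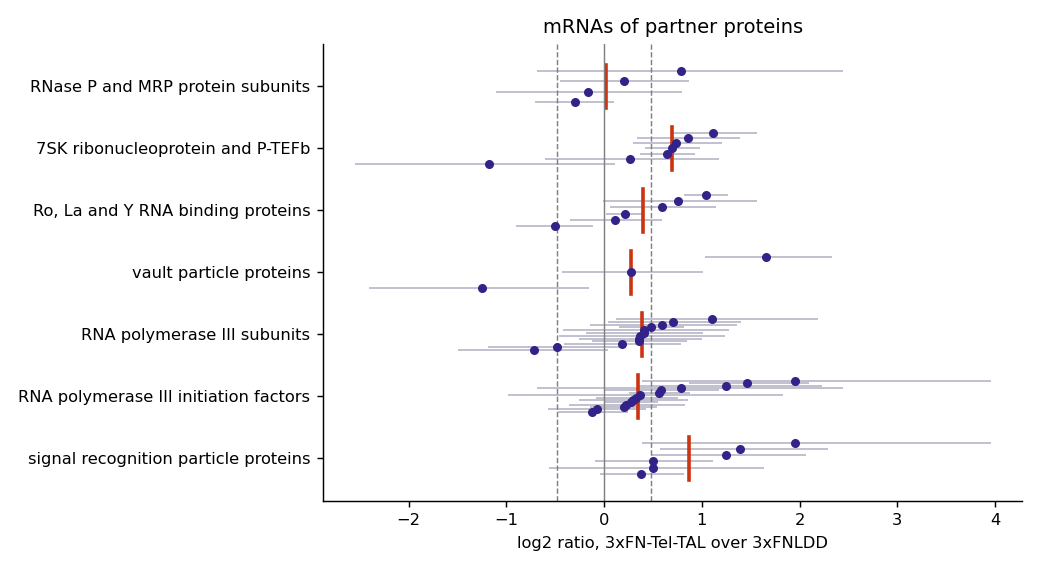
Log2 ratio (library totals) with 95% intervals of each gene with at least 20 reads in 7 lists of proteins that bind or make the small RNAs. Red bars are list medians, from 0.02 for RNase P and RNase MRP proteins to 0.87 for signal recognition particle proteins, and dashed lines are ratios of 1.4 and 1/1.4.

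The cell line and the libraries were checked on marker genes. Csf2rb, the common beta chain of cytokine receptors, had 583 and 1052 reads, Ptprc, the leukocyte antigen CD45, had 44 and 67, and Il3ra, the IL-3 receptor alpha chain, had 17 and 68. The epithelial keratin gene Krt5 had 5 and 0 reads and the cardiac myosin gene Myh6 had 8 and 0. Alb, also meant for this check as a gene of another lineage, was not among the listed symbols. By library totals Il3ra and Csf2rb were higher with 3xFN-Tel-TAL, and Krt5 and Myh6 lower, beyond counting error. Csf2rb lay at the median of all RNAs with at least 100 reads, both by totals (0.41) and with TMM (0.04). Ptprc did not differ beyond it. The library kit named in the labels selects polyadenylated RNA in its usual workflow, and these small RNAs carry no poly(A) tail. The part of this step in their levels was not tested.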

How the data were processed

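RNA purified after enChIP from Ba/F3 cells with 3xFNLDD or with 3xFN-Tel-TAL was sequenced, 1 library per condition, and samples were mapped by their titles. The authors deposited raw read counts per Ensembl transcript and, beside each count, RPM, which they scaled to the sum of the library's counts. The deposited RPM matched RPM recomputed here within rounding. The submitters' processing notes name cutadapt and the builds GRCm38 and mm10. The aligner and the handling of multiply matching reads are not given in the sources used here.

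Log2 ratios were taken from counts over library totals, without a pseudocount and with exact Clopper-Pearson intervals (Python 3.11.15, scipy 1.17.1). The calculation was tried on simulated Poisson counts with known ratios, which hold counting error alone. The simulation did not cover counts as low as those of Rny1, Rny3, Vaultrc5 and Gm25043, or of many copies and partner genes. No p-value is given. A count of 0 was treated as a limit of 3 reads. Members needed at least 20 reads to be counted against the threshold of 1.4 and all RNAs at least 100, and a gene's transcripts were summed for the lists. Alternatives were TMM (edgeR 4.0.16 in R 4.3.3, minimum 10 reads), totals without RNAs above 1%, a pseudocount of 1, other minimum counts, a threshold of 2 and the interval's bound in place of the ratio. Copies were sought with BLAST 2.17.0+ at 90% identity over 50% of the length.

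The sequence of Gm22405 is not reported here. The members and lists were chosen with earlier results of these data known. Named genes were every member, the gene with the most reads and those with the highest and lowest log2 ratio (at least 100 reads) in each list, other RNA polymerase III RNAs with at least 100 reads, the 2 nearest deep RNAs and up to 5 copies per member with at least 20 reads.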

Additional observations from a re-analysis of the deposited data

How the results depend on the processing

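No paired analysis was possible because each condition is 1 library, and for the same reason no replicate could be left out. No member's log2 ratio changed sign under any alternative tried. Of 43 other RNAs, genes and families named with a log2 ratio, 9 that were above 0 by library totals were below 0 with TMM: Rprl2 (−0.05), Gm24447 (−0.01), Gm24089 (−0.23), Ccdc107 (−0.02), Ncl (−0.16), Tep1 (−0.09), Polr3c (−0.19), Gtf3c2 (−0.10) and the U6 entries (−0.05). Without RNAs above 1%, 5 of them were below 0 (Gm24089, Ncl, Tep1, Polr3c and Gtf3c2). The TMM medians of the lists of RNase P and RNase MRP proteins (−0.35), vault proteins (−0.09) and initiation factors (−0.02) were also below 0. The count of members above 1.4, 6 by library totals, was 3 with TMM, 3 with totals that leave out RNAs above 1%, and 3 at a threshold of 2. The median log2 ratio of the members, 0.92, was 0.56 with TMM, 0.61 without RNAs above 1%, 1.05 over all members with a read in both libraries, and 0.78 over those with at least 10000 reads, an alternative chosen after seeing the data. The median of the listed partner genes, 0.41, was 0.037 with TMM and 0.09 without RNAs above 1%. Among all RNAs, 2469 were higher by the main criteria, against 1118 with TMM, 1258 without RNAs above 1%, 7275 at a minimum of 20 reads, 797 at a threshold of 2 and 893 by the interval's bound. The corresponding numbers of lower RNAs were 376, 908, 779, 1829, 104 and 152. The share of Rmrp in the reads of Rmrp and Rpph1 was 40.6% and 46.0% when the relatives of Rpph1 were added, also chosen after seeing the data. Of the 7 single log2 ratios, 4 moved beyond their counting interval under either other scaling, none with a pseudocount of 1, and neither of the 2 with near-identical copies did when these were added. The 4 that moved were the deep RNAs, whose intervals are narrow. Either scaling shifted all log2 ratios by the same amount, so depth set which ones moved. It does not show the other 3 to be steadier. Depth limits Rny1, Rny3 and, in part, Vaultrc5 and Gm25043, and the spread between cultures is unknown.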
